A study of Homo sapiens with 8 samples.

Results

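ERBB receptors and their ligands of the epidermal growth factor (EGF) family were followed as 10 genes, the receptors EGFR, ERBB2, ERBB3 and ERBB4 and the ligands EGF, HBEGF, AREG, EREG, TGFA and NRG1. They were found among the 37441 rows of the gene count table by matching Ensembl identifiers to gene symbols, and each of the 10 had a row. NCI-H1581 and NCI-H1703 are established lines of non-small cell lung cancer whose growth is sensitive to FGFR inhibition, and NCI-H1581R and NCI-H1703R are the variants selected from them by stepwise exposure to CPL304110, an inhibitor of FGFR. Selection began at 50 nM and ended at 2.5 µM for NCI-H1581R and at 5 µM for NCI-H1703R after 4 to 6 months, so that each line is represented by 1 selected population. Each of the 4 variants gave 2 RNA-seq libraries, 8 in all, from a culture procedure that was carried out again for the second replicate. NCI-H1581 and its variant grew in DMEM/F12 and NCI-H1703 and its variant in RPMI 1640, all with 10% serum, and cells were harvested 24 h after fresh medium was added. Whether that medium held the inhibitor is not stated in the sources used here, and the line and its medium cannot be told apart.

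ERBB receptors are membrane tyrosine kinases that work in pairs and pass growth signals to the RAS-MAP kinase and PI3K-AKT pathways. EGFR binds EGF, TGFA, AREG, HBEGF and EREG, ERBB3 and ERBB4 bind neuregulins such as NRG1, and ERBB2 has no known ligand of its own and acts as the preferred partner of the others. The ligands are made as membrane-bound precursors and are released by ADAM proteases, and ERBB signalling is a known route around inhibited FGFR in cancer cells.

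Library totals lay between 33800389 and 40031710 estimated counts, and 18203 genes with at least 10 counts over the 8 libraries were tested, all 10 members among them. A library with 3 counts or fewer of a gene (0.0749 to 0.0888 CPM, counts scaled to the library total) was taken as not showing it, a limit that covers counting error only. Among markers of cell type, 5 epithelial ones summed to between 6.81 and 74.2 CPM per library and 4 mesenchymal ones to between 2733 and 6678 CPM. Squamous markers summed to between 1 and 38.9 CPM, lung adenocarcinoma markers to between 1.94 and 60.7 CPM and neuroendocrine markers to between 8.69 and 103 CPM, with INSM1 at 0 counts in every library. Leukocyte markers reached at most 0.396 CPM and endothelial markers at most 0.449 CPM, with CD3E at 0 counts in every library and CDH5 at 0 or 1. Several markers also moved with resistance, in the same libraries as the members. From NCI-H1703 to NCI-H1703R the epithelial sum went from between 74 and 74.2 to between 6.81 and 8.62 CPM. The squamous sum went from between 37.6 and 38.9 to between 1 and 1.36 CPM. KRT18 made up most of the epithelial fall, from 64.6 to 2.73 CPM, and SOX2 of the squamous fall, from 37.4 to 0.378 CPM. Their log2 fold changes were -4.56 and -6.62 (edgeR adjusted p of 0.000199 and 0.000399). The other epithelial and squamous markers were not called. Mesenchymal CDH2 and FN1 were called at -5.42 and -0.74 (edgeR adjusted p of 0.000199 and 0.0591). Neuroendocrine CHGA, at low counts, was called at -7.00 and SYP at 0.88 (edgeR adjusted p of 0.0764 and 0.0414). From NCI-H1581 to NCI-H1581R the squamous sum went from between 7.71 and 8.29 to between 34.4 and 38.7 CPM, with log2 fold changes of 2.30 for TP63, 9.63 for the matrix gene FN1 and 3.67 for ZEB1 (edgeR adjusted p of 0.00103, 4.93e-05 and 0.0018). The mesenchymal markers CDH2 and VIM were lower without a call, at -1.37 and -0.55 (edgeR adjusted p of 0.114 and 0.264). VIM made up most of the mesenchymal sum, which went from between 6104 and 6678 to between 4821 and 5472 CPM. Also called were NKX2-1 at 1.81, SOX2 at 2.64, CHGA at 4.33 and EPCAM at -0.90 (edgeR adjusted p of 0.006, 0.0174, 0.0187 and 0.0568). The part of these shifts in the changes of ERBB receptors and ligands was not tested. Counts of the keratin gene KRT5 were 0 or 1 in the first replicate of every variant and between 35 and 47 in the second, so the second replicates stood apart from the first in this gene.

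The stretch of 250 bases before the annotated start of the canonical transcript is shown for 3 members on which the results turn. These are EGFR, whose level separated the lines, HBEGF, the member ligand with the highest mean level per length, and EGF, which was found in NCI-H1581R libraries. Sequences are from RefSeq (GRCh38.p14), 5′ to 3′ on the strand of the gene. Windows before an annotated start were at hand for 8 of the 10 members (not ERBB3 and NRG1). The ERBB2 window, not shown, lies before a start that is not the canonical one. Capitals mark the GC box GGGCGG, the TATA box TATAAA, the AP-1 site TGANTCA and the E-box CACGTG, each searched on both strands. EGFR lies at chr7:55018767-55019016 on the + strand, HBEGF at chr5:140346604-140346853 on the - strand and EGF at chr4:109912633-109912882 on the + strand.
EGFR: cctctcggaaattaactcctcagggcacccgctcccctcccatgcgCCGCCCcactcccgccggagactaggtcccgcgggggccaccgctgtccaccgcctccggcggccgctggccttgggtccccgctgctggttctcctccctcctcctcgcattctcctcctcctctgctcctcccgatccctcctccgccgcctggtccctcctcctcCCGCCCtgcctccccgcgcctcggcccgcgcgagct
HBEGF: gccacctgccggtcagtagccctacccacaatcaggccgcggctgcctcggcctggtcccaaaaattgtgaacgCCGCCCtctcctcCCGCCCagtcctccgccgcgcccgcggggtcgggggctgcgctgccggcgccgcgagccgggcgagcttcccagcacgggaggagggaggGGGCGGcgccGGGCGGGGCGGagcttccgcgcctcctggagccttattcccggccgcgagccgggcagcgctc
EGF: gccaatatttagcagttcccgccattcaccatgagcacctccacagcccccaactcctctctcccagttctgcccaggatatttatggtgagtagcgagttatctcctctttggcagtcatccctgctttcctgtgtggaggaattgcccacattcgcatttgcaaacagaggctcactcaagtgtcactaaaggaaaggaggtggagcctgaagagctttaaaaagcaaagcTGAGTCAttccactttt

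The EGFR window shown held 2 GC boxes and the HBEGF window 5, of which the last pair shares a base, and neither held any of the other motifs. The EGF window held 1 AP-1 site and none of the others. Another EGFR window, before a start at 55109839 that is not the canonical one, is not shown. It held 2 TATA boxes and 2 AP-1 sites but no GC box, with G and C at 38.8%. Of 35116 annotated windows of the same length, 42.6% held a GC box, 10.7% a TATA box, 6.57% an AP-1 site and 6.34% an E-box. The bases G and C made up 73.6% of the EGFR window shown, 76.4% of the HBEGF window and 48.8% of the EGF window, against a median of 58.0% over all windows. These matches describe the letters of the windows, and binding was not measured.

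Per length of the canonical transcript, ERBB2 was the main ERBB receptor transcript of both lines and EGFR a second one in NCI-H1703 and NCI-H1703R. HBEGF was the leading transcript of the 6 ligands among the members per length in every variant. To compare genes, CPM were divided by the length of the GENCODE canonical transcript in kilobases. On this scale, ERBB2 took 92.7% of the summed level of the 4 receptors in NCI-H1581 and 94.9% in NCI-H1581R. In NCI-H1703 it took 57.7% beside 41.8% for EGFR, and in NCI-H1703R the shares were 71.6% and 27.8%. In CPM without a length EGFR exceeded ERBB2 in NCI-H1703, at 333 against 212, and lay below it in NCI-H1703R, at 243 against 287. Their order in NCI-H1703 thus depended on the length used. The summed level of the receptors was 44.1 and 42.8 for NCI-H1581, 34.6 and 39.8 in NCI-H1581R, 78.4 and 82.7 in NCI-H1703 and 85 and 91.2 in NCI-H1703R.

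Among the 6 ligands, HBEGF held 84% of the summed level per length for NCI-H1581, 98.3% for NCI-H1703 and 99.2% for NCI-H1703R. In NCI-H1581R it held 63.7%, next to 23.6% for NRG1 and 7.25% for EGF. HBEGF also led in each variant with the longest transcript or the union of exons as the length, but in CPM without a length NRG1 exceeded it in NCI-H1581R, at 7.90 against 4.23. The 6 ligands summed to levels of 1.05 and 1.06 for NCI-H1581 and of 3.04 and 2.59 for NCI-H1581R, far below the 36.5 and 42.6 of NCI-H1703 and the 56.1 and 74 of NCI-H1703R. NRG2, a ligand outside the members, does not enter these sums and shares. Per length it was at 2.21 in NCI-H1581, above HBEGF at 0.886, and at 0.432 in NCI-H1581R. In NCI-H1703 and NCI-H1703R it was at 5.98 and 6.08, below HBEGF. In all, 11 of the 40 mean levels of a member in a variant passed 1 CPM per kilobase.

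**Figure D1:**
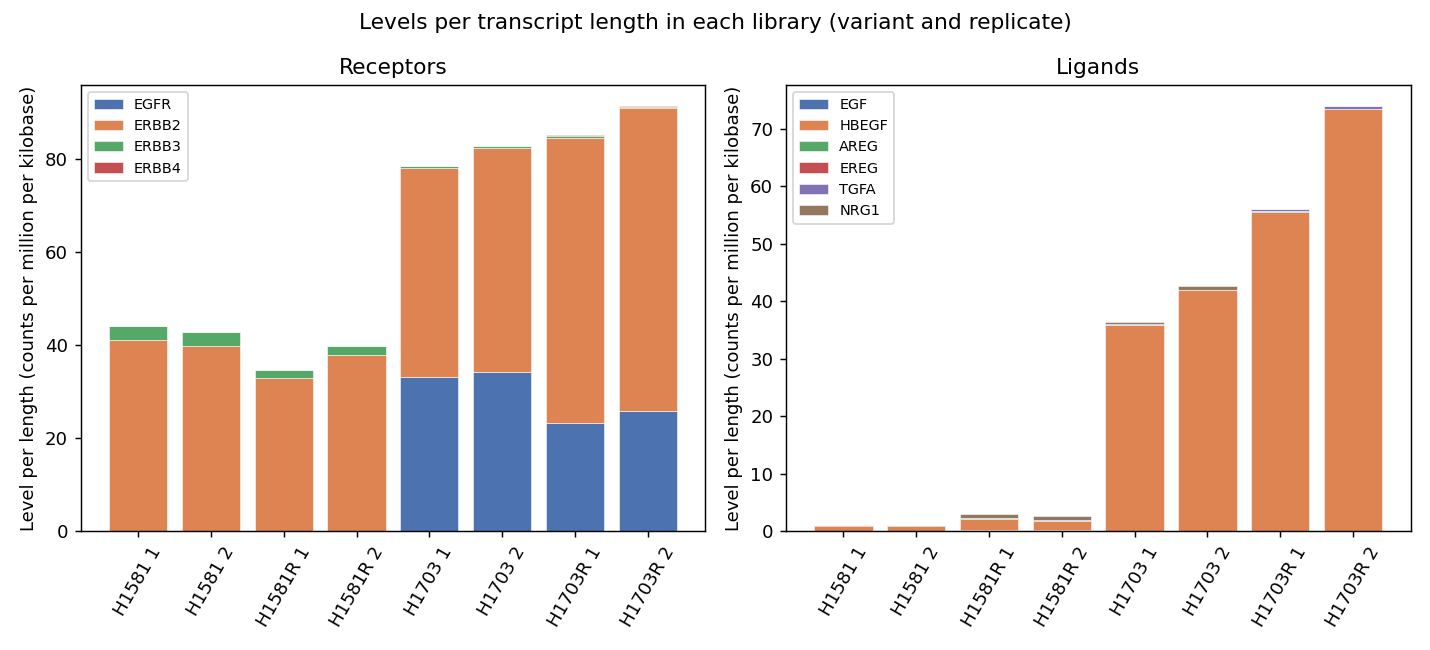
Levels of the 4 receptors (left) and the 6 ligands (right) in each of the 8 libraries, in CPM per kilobase of transcript, stacked by gene, with the variant and replicate number under each bar. ERBB2 fills most of every receptor bar, EGFR is visible in the NCI-H1703 and NCI-H1703R bars, and HBEGF fills most of every ligand bar.

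The order of the members per length was led by ERBB2 in NCI-H1581, at 40.3 ± 1.0 (SD, n = 2), followed by ERBB3 at 3.10 ± 0.033 and HBEGF at 0.886 ± 0.0497. AREG came next, at 0.109, and below it EGFR, EREG, TGFA, ERBB4, NRG1 and EGF lay between 0.00195 and 0.0563, each overlapping its neighbour between replicates. In NCI-H1581R, ERBB2 at 35.3 ± 3.46 was followed by ERBB3 at 1.88 ± 0.213 and HBEGF at 1.79 ± 0.236, which overlapped, and then by NRG1 at 0.660 and EGF at 0.204, each apart from its neighbours.

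In NCI-H1703 the order per canonical length was ERBB2 at 46.4 ± 2.32, HBEGF at 38.9 ± 4.31 and EGFR at 33.6 ± 0.769, all without overlap. In NCI-H1703R, HBEGF at 64.5 ± 12.6 and ERBB2 at 63.0 ± 2.56 overlapped and EGFR followed at 24.6 ± 1.94. ERBB3, NRG1 and TGFA lay at or under 0.516 in both NCI-H1703 variants. The ligand HBEGF stood among the 3 highest members in each of the 4 variants.

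The sensitive lines differed in the receptor and ligand genes before selection, most of all in EGFR. EGFR (ENSG00000146648, chr7:55019017-55211628, + strand of GRCh38), which encodes the receptor for EGF, was counted 9 and 34 times in NCI-H1581 and 12341 and 11220 times in NCI-H1703. That is 0.557 ± 0.412 CPM against 333 ± 7.62 CPM (SD, n = 2), and no NCI-H1581 library came near one of NCI-H1703. The fitted log2 fold change was 9.16 (SE 0.23, edgeR adjusted p = 1.2e-07). In bulk RNA, fewer expressing cells and less RNA per cell cannot be told apart.

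HBEGF (ENSG00000113070, chr5:140332843-140346603, - strand), the heparin-binding ligand of EGFR and ERBB4, was at 68 and 87 counts for NCI-H1581 against 3183 and 3278 for NCI-H1703. The groups lay far apart, at 2.09 ± 0.117 and 91.7 ± 10.2 CPM, and the log2 fold change was 5.45 (SE 0.18, edgeR adjusted p = 3.67e-07). NRG1 (ENSG00000157168, chromosome 8), a neuregulin that binds ERBB3 and ERBB4, was at 5 and 0 counts for NCI-H1581 against 185 and 247 for NCI-H1703, a log2 fold change of 6.43 (SE 0.72, edgeR adjusted p = 9.1e-05). ERBB3 (ENSG00000065361, chr12:56076799-56103505, + strand), a receptor with little kinase activity of its own that signals through its partners, went the other way. It had 586 and 703 counts in NCI-H1581 and 110 and 80 in NCI-H1703, and the log2 fold change was -2.70 (SE 0.20, edgeR adjusted p = 2.38e-05).

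In the sensitive lines 6 of the 10 members were called, 5 higher in NCI-H1703 and 1 lower, where 62.9% of all genes tested were called (32.5% higher, 30.4% lower), so the count of members was close to the background. A call here means a Benjamini-Hochberg adjusted p under 0.1. The members' median log2 fold change was 0.13, against 0.04 over all genes tested. The other called members were TGFA, at 2.68 with an adjusted p of 0.0719, and ERBB2, at 0.21 with an adjusted p of 0.0889, both by edgeR. The call of ERBB2 was lost with the replicate number as a block (0.21, edgeR adjusted p = 0.101). It was also lost with RLE normalisation (adjusted p 0.146), and that of TGFA with DESeq2 (adjusted p 0.237). Without either NCI-H1703 replicate, the calls of ERBB2 and TGFA were both lost and 4 members were called, and without replicate 2 of NCI-H1581 they were lost too, while EREG was called and 5 members were called in all. The log2 fold change of TGFA then ranged from 1.59 to 7.07 and that of NRG1 from 5.34 to 10.83, the ends being the fits without replicate 2 and without replicate 1 of NCI-H1581, of which replicate 2 had 0 counts of both. That of EGFR was 8.62 without replicate 1 of NCI-H1581 and 10.27 without replicate 2, and EGFR, NRG1 and HBEGF stayed called.

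In the resistant variants the lines differed in 8 of the 10 members, 5 higher and 3 lower in NCI-H1703R, where 52.5% of all genes were called (25.9% higher, 26.7% lower). Each library enters one comparison within its line and one between the lines, so that these comparisons are not independent of each other. EGFR had 0 and 11 counts in NCI-H1581R and 8471 and 9648 in NCI-H1703R, and HBEGF had 175 and 153 against 4834 and 6507. The log2 fold changes were 10.71 for EGFR (SE 0.51, edgeR adjusted p = 8.18e-05) and 5.17 for HBEGF (SE 0.24, edgeR adjusted p = 8.51e-05). The value of EGFR was 9.69 without replicate 1 of NCI-H1581R, which had 0 counts, and 16.15 without replicate 2, called in both. NRG1 was now lower in the NCI-H1703 variant, with 302 and 312 counts in NCI-H1581R and 17 and 21 in NCI-H1703R, a log2 fold change of -3.95 (SE 0.33, edgeR adjusted p = 0.000591). The order of the lines in NRG1 was thus opposite in the sensitive and in the resistant variants.

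EGF also separated the resistant variants, with 52 and 49 counts in NCI-H1581R and 1 and 2 in NCI-H1703R. The ratio of the summed counts was 33.6, with an exact 95% counting interval from 11.2 to 166, and the edgeR adjusted p was 0.00122. ERBB3 stayed lower in the NCI-H1703 variant (log2 fold change -2.11, edgeR adjusted p = 0.00365). ERBB2, TGFA and ERBB4 were called higher, with log2 fold changes of 0.84, 2.49 and 2.44 and edgeR adjusted p of 0.0106, 0.0115 and 0.0254. The members' median was 0.25, against 0.00 over all genes. Without replicate 2 of NCI-H1703R, ERBB2 and ERBB4 lost their calls and 6 members were called.

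**Figure D2:**
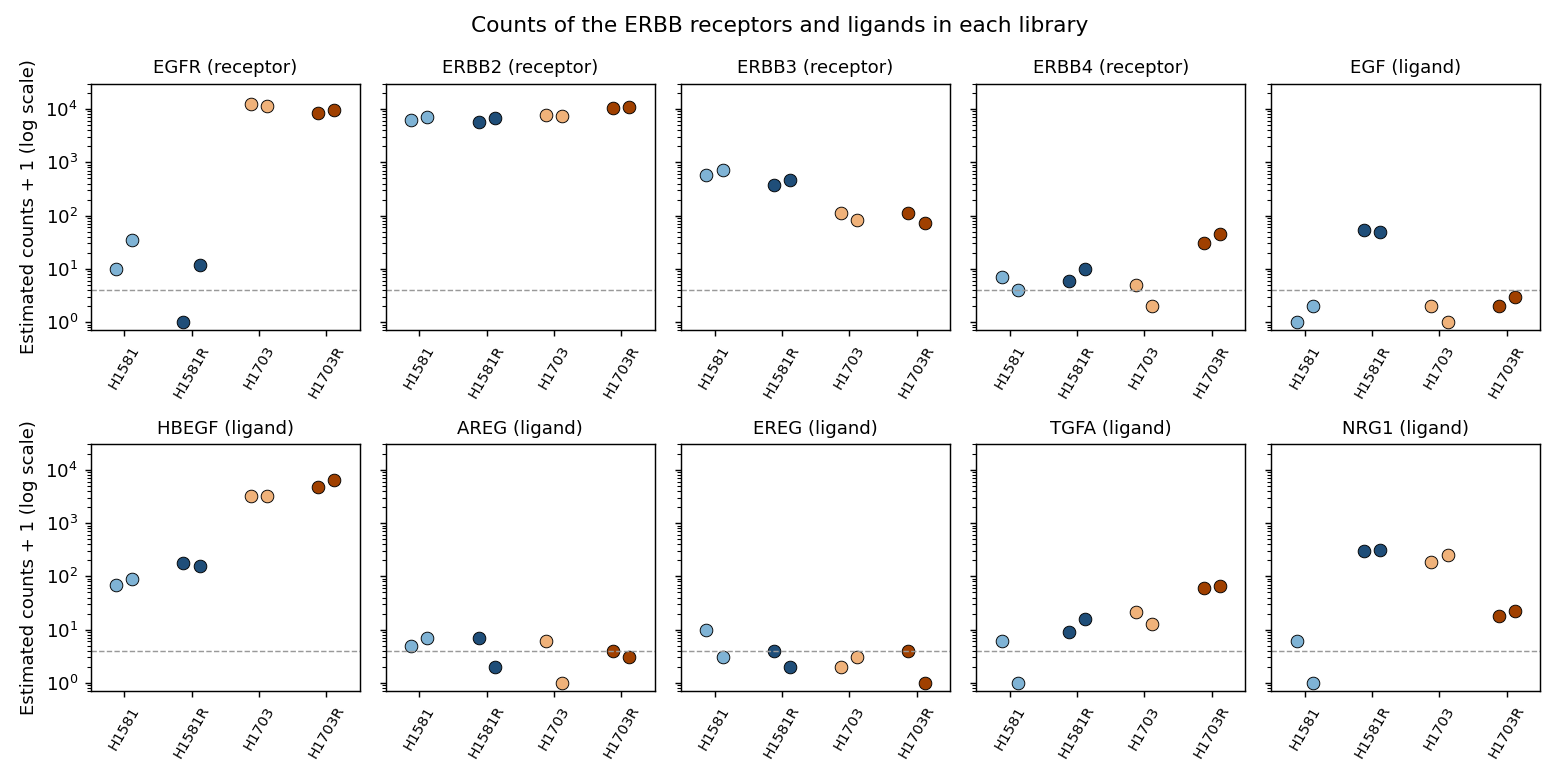
Estimated counts plus 1, on a log scale, of each of the 10 members in the 8 libraries, with replicate 1 to the left and replicate 2 to the right in each variant and the limit of 3 counts as a dashed line. NRG1 and EGF stand high in NCI-H1581R and low in NCI-H1581, NRG1 falls from NCI-H1703 to NCI-H1703R, and EGFR is at 8471 counts or more in the 4 NCI-H1703 and NCI-H1703R libraries.

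With resistance in the NCI-H1581 line, the ligand genes NRG1 and EGF were higher and the receptor gene ERBB3 was lower. NRG1 had 5 and 0 counts in NCI-H1581 and 302 and 312 in NCI-H1581R, or 0.0738 ± 0.104 and 7.90 ± 0.109 CPM (SD, n = 2). The replicates of NCI-H1581R were close to each other and far above both of NCI-H1581. The log2 fold change was 6.82 (SE 0.65, edgeR adjusted p = 0.000576), and the ratio of the summed counts was 124, with an exact 95% counting interval from 52.7 to 382. The size rests on the NCI-H1581 libraries, since the fitted value was 11.28 without replicate 1, which leaves the library at 0 counts, and 5.72 without replicate 2, and it was called in both.

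EGF (ENSG00000138798, chr4:109912883-110013766, + strand), the ligand that gave the family its name, had 0 and 1 counts in NCI-H1581 and 52 and 49 in NCI-H1581R. The count ratio was 102 with a counting interval from 17.8 to 4056, since a single count stood in the sensitive cells, and the edgeR adjusted p was 0.0147. EGF reached 1.30 ± 0.103 CPM in NCI-H1581R, against 4.23 for HBEGF. Its fitted log2 fold change was 6.29, and it was 5.54 without replicate 1 of NCI-H1581 and 8.60 without replicate 2, called in both.

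ERBB3 fell from 586 and 703 counts to 368 and 455, or from 17.4 ± 0.185 to 10.6 ± 1.19 CPM, and the groups did not overlap. Its log2 fold change was -0.70 (SE 0.21, edgeR adjusted p = 0.0926), close to the threshold. The call was lost without either NCI-H1581 replicate, with adjusted p up to 0.432, with no filter on low counts (adjusted p 0.107) and with legacy quasi-dispersions (adjusted p 0.101). ERBB3 is the partner through which ERBB2 passes signals of neuregulins to PI3K.

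HBEGF had 68 and 87 counts in NCI-H1581 and 175 and 153 in NCI-H1581R, or 2.09 ± 0.117 and 4.23 ± 0.556 CPM, without overlap. Its log2 fold change of 1.03 (95% interval 0.25 to 1.81) missed the threshold, with an edgeR adjusted p of 0.11. It passed in a single fit of all 8 libraries (adjusted p 0.0355), with at least 10 counts asked of every library (adjusted p 0.0705) and without replicate 2 of NCI-H1581R (adjusted p 0.0952). ERBB2 (ENSG00000141736, chr17:39687914-39730426, + strand), the receptor known as HER2, had 6328 and 7219 counts in NCI-H1581 and 5660 and 6852 in NCI-H1581R. Its log2 fold change was -0.17 (95% interval -0.57 to 0.23, edgeR adjusted p = 0.601), an interval that leaves room for a fall of up to 0.57 on the log2 scale. Some bases of ERBB2 exons overlap PGAP3 and MIEN1 on the opposite strand, and whether the libraries kept the strand is not given in the sources used here.

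The remaining members were at low counts in this line. EGFR had 9 and 34 counts in NCI-H1581 and 0 and 11 in NCI-H1581R, and the groups overlapped (log2 fold change -1.99, 95% interval -4.69 to 0.71, edgeR adjusted p = 0.35). In both variants EGFR was higher in the second replicate, in which KRT5 was also higher, and the part of this difference in the EGFR values was not tested. TGFA (ENSG00000163235, chr2:70447284-70554193, - strand), a ligand of EGFR, had 5 and 0 counts against 8 and 15 (log2 fold change 2.09, 95% interval -0.81 to 4.99, edgeR adjusted p = 0.365). ERBB4 (ENSG00000178568, chr2:211375717-212538841, - strand), the second neuregulin receptor with an active kinase, had 6 and 3 counts against 5 and 9 (log2 fold change 0.57, edgeR adjusted p = 0.775). AREG (ENSG00000109321, chr4:74445136-74455005, + strand) and EREG (ENSG00000124882, chr4:74365145-74388749, + strand), neighbouring genes for EGFR ligands, had at most 6 and 9 counts in any of the 8 libraries. Neither was called in NCI-H1581R, with a log2 fold change of -0.55 for AREG (95% interval -3.15 to 2.05, edgeR adjusted p = 0.823) and of -1.46 for EREG (95% interval -4.31 to 1.39, edgeR adjusted p = 0.54).

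Of the 10 members, 3 were called in NCI-H1581R against NCI-H1581, 2 higher and 1 lower, where 15.1% of all genes tested were called (7.63% higher, 7.44% lower). The members' median log2 fold change was 0.20, against 0.04 over all genes. It was 1.56 over the 6 ligands and -0.44 over the 4 receptors. In 6 of the 10 members the CPM of the variants did not overlap, as in 50.5% of all genes. In the first replicates taken alone, as log2 ratios of CPM plus 0.1 and with no test, all 3 called members kept their direction, with NRG1 at 5.03 against a fitted 6.82, EGF at 3.88 against 6.29 and ERBB3 at -0.82 against -0.70.

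With resistance in the NCI-H1703 line, HBEGF, ERBB2, TGFA and ERBB4 were higher and NRG1 and EGFR were lower. NRG1 fell, from 185 and 247 counts in NCI-H1703 to 17 and 21 in NCI-H1703R, or from 6.18 ± 1.79 to 0.510 ± 0.0693 CPM. Both libraries of NCI-H1703R lay far below both of NCI-H1703, and the log2 fold change was -3.58 (SE 0.42, edgeR adjusted p = 0.00761).

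HBEGF rose from 3183 and 3278 counts to 4834 and 6507, or from 91.7 ± 10.2 to 152 ± 29.8 CPM, without overlap. The log2 fold change was 0.73 (SE 0.16, edgeR adjusted p = 0.047), which is 1.66-fold. ERBB2 rose from 7691 and 7266 counts to 10294 and 11105, or from 212 ± 10.6 to 287 ± 11.7 CPM (log2 fold change 0.44, SE 0.09, edgeR adjusted p = 0.0425). EGFR fell from 12341 and 11220 counts to 8471 and 9648, or from 333 ± 7.62 to 243 ± 19.2 CPM (log2 fold change -0.45, SE 0.10, edgeR adjusted p = 0.0463). Both of these abundant receptor transcripts were therefore without overlap between the variants and moved in opposite directions, by 1.36-fold and 1.37-fold. The call of EGFR was lost in a single fit of all 8 libraries (log2 fold change -0.48, adjusted p 0.246).

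TGFA and ERBB4 rose from low counts. TGFA had 20 and 12 counts in NCI-H1703 and 59 and 66 in NCI-H1703R (log2 fold change 1.89, SE 0.44, edgeR adjusted p = 0.0585). ERBB4 had 4 and 1 counts against 29 and 45, and the ratio of the summed counts was 14.0 with an exact 95% counting interval from 5.73 to 44.3 (edgeR adjusted p = 0.0324). Its fitted log2 fold change was 4.89 without replicate 1 of NCI-H1703 and 3.19 without replicate 2, neither of them called. ERBB4 remained at 0.082 CPM per kilobase in NCI-H1703R, under ERBB3 at 0.436. ERBB3 had 110 and 80 counts against 109 and 73, and the groups overlapped (log2 fold change -0.13, 95% interval -0.94 to 0.68, edgeR adjusted p = 0.876). AREG had 5 and 0 counts against 3 and 2, and EGF and EREG summed to 3 counts or fewer in each variant, so no direction could be given for these 3 ligands.

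Of the 10 members, 6 were called in NCI-H1703R against NCI-H1703, 4 higher and 2 lower, where 14.7% of all genes were called (7.06% higher, 7.67% lower). The members' median log2 fold change was 0.19, against 0.00 over all genes, and in 7 of the 10 the CPM of the variants did not overlap, as in 51.2% of all genes. One of the 7 is EGF, which had at most 2 counts in any of these libraries. In the first replicates taken alone, all 6 called members kept their direction, with ERBB4 at 2.10 against a fitted 3.75 and TGFA at 1.43 against 1.89. These calls rest on both NCI-H1703 libraries: without replicate 1 only NRG1 was called, and 293 genes in all, and without replicate 2 edgeR called 0 of the 10, although 6 had an unadjusted p under 0.05, and 274 genes in all. DESeq2 on all 4 libraries of the line called the same 6 members as edgeR. Without replicate 1 or replicate 2 of NCI-H1703R 4 members were called, TGFA and EGFR or TGFA and ERBB2 being lost.

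**Figure D3:**
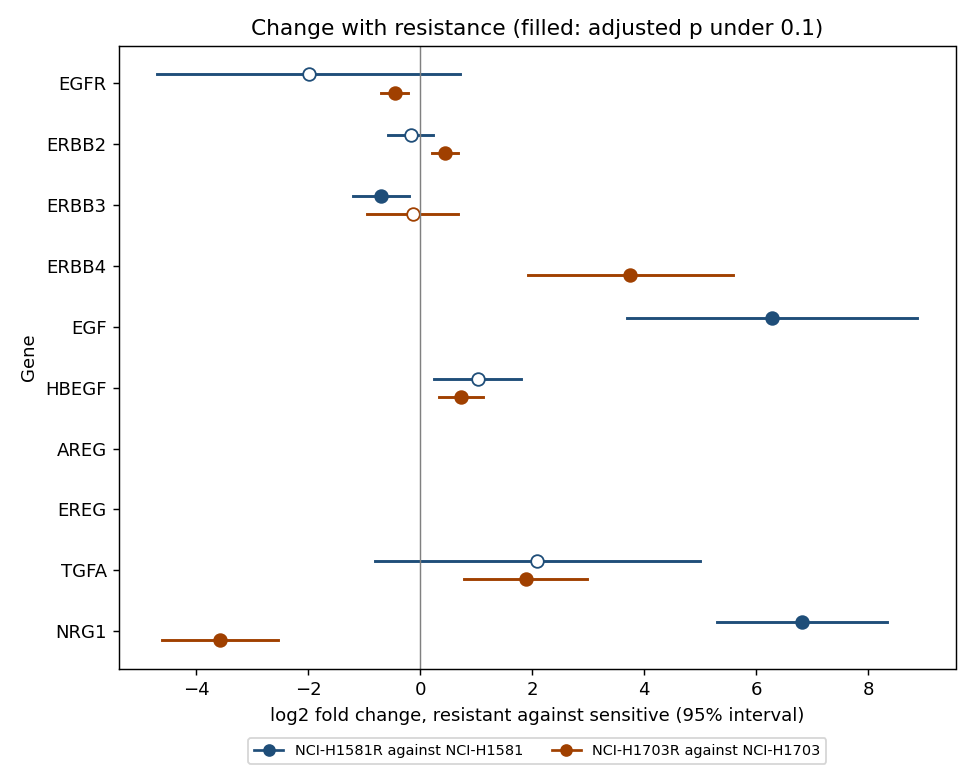
Log2 fold change of resistant against sensitive cells for each member, with its 95% interval, blue for the NCI-H1581 line and brown for the NCI-H1703 line, filled where the adjusted p was under 0.1. Members at low counts without a call (AREG and EREG in both lines, ERBB4 in NCI-H1581R and EGF in NCI-H1703R) are not drawn, and NRG1 lies at 6.82 in one line and at -3.58 in the other.

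Whether a change with resistance differed between the lines was tested as an interaction in a fit of all 8 libraries, and 2 of the 10 members were called, 1 higher and 1 lower, where 15.4% of all genes were (6.93% higher, 8.47% lower). NRG1 changed in opposite directions, and the difference, NCI-H1703 minus NCI-H1581, was -10.42 on the log2 scale (SE 0.76, edgeR adjusted p = 4.2e-05). Its call held in 8 fits that each lacked 1 library, with values from -14.84, without replicate 1 of NCI-H1581, to -9.33, without replicate 2 of NCI-H1581. ERBB2 differed by 0.59 (SE 0.17, edgeR adjusted p = 0.0668), with the rise in NCI-H1703R on one side and the uncalled value in NCI-H1581R on the other. The call of ERBB2 was lost without either NCI-H1581 library and without any of the 4 NCI-H1703 and NCI-H1703R libraries, with adjusted p up to 0.236.

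HBEGF differed by -0.32 between the lines (95% interval -1.05 to 0.42, edgeR adjusted p = 0.648), although it was called in only one of them. The differences of EGFR, at 1.52, ERBB3, at 0.55, and ERBB4, at 3.16, were not called (edgeR adjusted p of 0.41, 0.419 and 0.188). For EGF the difference was -4.99 with a 95% interval from -12.61 to 2.63 (edgeR adjusted p = 0.446), an interval this wide because EGF had at most 2 counts in any NCI-H1703 or NCI-H1703R library. The members' median difference was 0.50, against -0.09 over all genes.

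Beyond the members, 27 genes of the pathway were followed, namely other ligands, genes of ligand shedding, negative regulators and adaptors, and 25 of them passed the filter on low counts. In NCI-H1581R against NCI-H1581, 4 were higher and 3 lower, which is 28% where 15.1% of all genes were called. The median of the list was -0.04, against 0.04 over all genes. Among the other ligands NRG2, a neuregulin of ERBB3 and ERBB4, fell from counts of 316 and 320 to counts of 57 and 75 (log2 fold change -2.33, SE 0.31, edgeR adjusted p = 0.00519). Both libraries of NCI-H1581R were far below those of NCI-H1581, and NRG2 thus fell where NRG1 rose.

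LRIG3, of a family of membrane proteins that bind ERBB receptors, fell from 520 and 540 counts to 17 and 20 in NCI-H1581R (log2 fold change -4.89, SE 0.34, edgeR adjusted p = 0.000367). ERRFI1, also known as MIG6, a feedback inhibitor of ERBB kinases, rose from counts of 270 and 309 to counts of 511 and 489 (log2 fold change 0.74, SE 0.21, edgeR adjusted p = 0.088). CBLB, a ubiquitin ligase of receptor kinases, rose from counts of 13 and 9 to counts of 98 and 141 (log2 fold change 3.37, SE 0.55, edgeR adjusted p = 0.0124). The called negative regulators moved both ways, 2 of 10 higher and 1 lower, where 7.63% of all genes were called higher and 7.44% lower.

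Among 7 adaptors, which link receptors to RAS and PI3K, 2 were higher and 1 lower in NCI-H1581R. That is 42.9%, where 15.1% of all genes were called. SOS2, an exchange factor of RAS, rose from counts of 383 and 694 to counts of 1025 and 1346 (log2 fold change 1.10, SE 0.27, edgeR adjusted p = 0.0507). GAB1, a docking protein, rose from counts of 49 and 98 to counts of 224 and 195 (log2 fold change 1.47, SE 0.36, edgeR adjusted p = 0.0552). SHC1, an adaptor that recruits GRB2, fell from counts of 12467 and 11899 to counts of 7630 and 6192 (log2 fold change -0.88, SE 0.20, edgeR adjusted p = 0.0423). The calls of ERRFI1, SOS2, GAB1 and SHC1 were lost without either NCI-H1581 library, with adjusted p up to 0.461. None of the 5 genes of ligand shedding was called in this line by edgeR, where 2 of them had an unadjusted p under 0.05, and DESeq2 called these 2, RHBDF1 and RHBDF2.

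In NCI-H1703R against NCI-H1703, 3 of the 25 genes were higher and 2 lower, which is 20% where 14.7% of all genes were called, with a median of 0.14 against 0.00 over all genes. PTPRJ, a receptor phosphatase that acts on growth factor receptors, fell from counts of 3034 and 2750 to counts of 1198 and 1305 (log2 fold change -1.28, SE 0.09, edgeR adjusted p = 0.00172). LRIG1, which promotes the removal of ERBB receptors, fell from counts of 326 and 300 to counts of 206 and 199 (log2 fold change -0.70, SE 0.17, edgeR adjusted p = 0.0614). LRIG3 rose from counts of 75 and 42 to counts of 126 and 152 (log2 fold change 1.18, SE 0.32, edgeR adjusted p = 0.0858).

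Of the shedding genes, RHBDF2, a partner of the protease ADAM17, rose in NCI-H1703R from counts of 2062 and 1730 to counts of 2637 and 2793 (log2 fold change 0.45, SE 0.09, edgeR adjusted p = 0.0372). ADAM17, which releases HBEGF, TGFA and AREG from the membrane, rose from counts of 1999 and 1717 to counts of 2458 and 2622 (log2 fold change 0.38, SE 0.09, edgeR adjusted p = 0.057). The groups did not overlap in either gene. Without replicate 1 or replicate 2 of NCI-H1703, the calls of LRIG1, LRIG3, RHBDF2 and ADAM17 were lost, with adjusted p up to 0.346, and that of PTPRJ was kept. Without replicate 2 of NCI-H1703R these 4 calls were lost as well, and without replicate 1 those of LRIG1, LRIG3 and ADAM17. None of the 7 adaptors was called in this line by edgeR or DESeq2, and 0 had an unadjusted p under 0.05. By edgeR 14.7% of all genes were called. The ligand BTC had 0 counts in both NCI-H1703 libraries and 10 and 4 in NCI-H1703R, and was not called (edgeR adjusted p = 0.152).

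**Figure D4:**
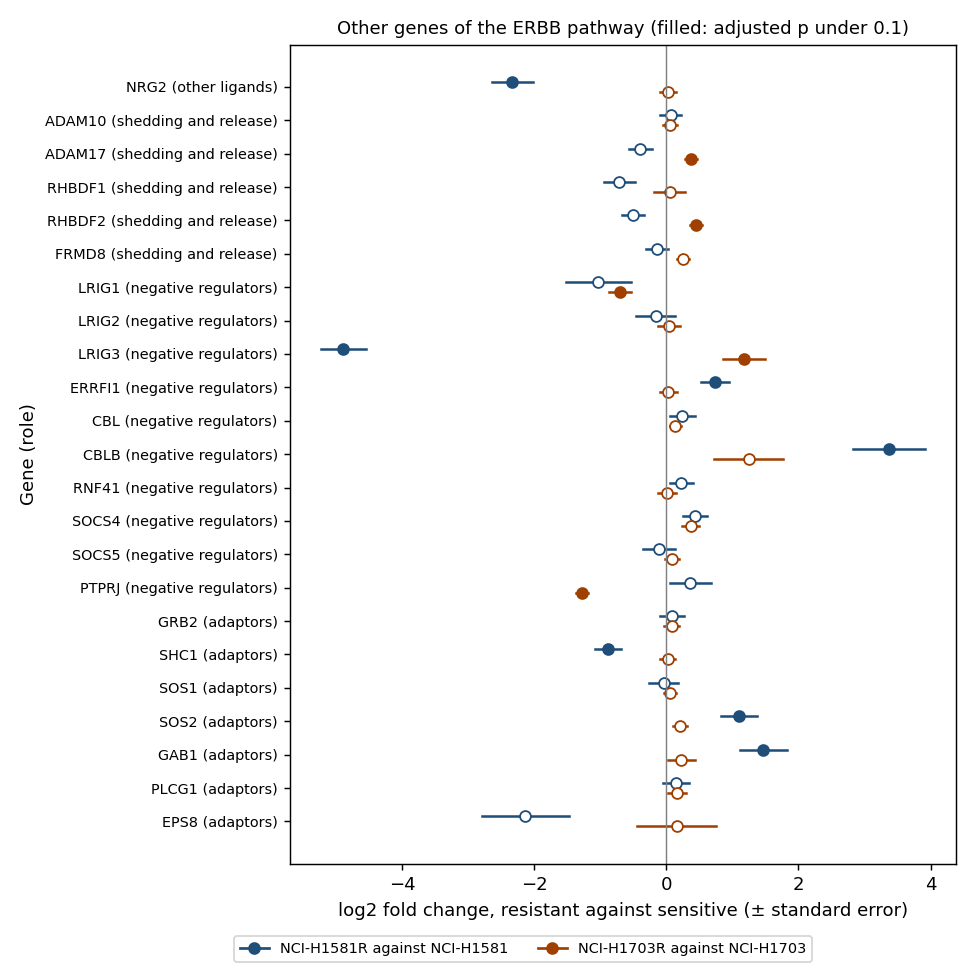
Log2 fold change of resistant against sensitive cells, with its standard error, for the pathway genes tested other than BTC and NRG4, whose counts were too low, with blue for the NCI-H1581 line, brown for the NCI-H1703 line and filled points where the adjusted p was under 0.1. LRIG3 lies at -4.89 in NCI-H1581R and at 1.18 in NCI-H1703R, and most other genes lie near 0.

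In the interaction test 9 of the 25 pathway genes were called, or 36% where 15.4% of all genes were. The largest of these differences, NCI-H1703 minus NCI-H1581, were 6.04 for LRIG3 (SE 0.46, edgeR adjusted p = 0.00014) and 2.33 for NRG2 (SE 0.27, edgeR adjusted p = 0.00121). PTPRJ differed by -1.66 (SE 0.30, edgeR adjusted p = 0.0106). RHBDF2 differed by 0.93 and ADAM17 by 0.75 (edgeR adjusted p of 0.0167 and 0.0344).

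Some genes followed the leading receptor and ligand across the libraries. Among 10735 genes whose mean over the 8 libraries reached 5 CPM, the pattern of log2(CPM + 1) most like that of ERBB2 was found for ACTN1 (Pearson's r 0.9911), PLD1 (0.9873) and DNASE2 (0.9814). For HBEGF it was TPBG (0.9993), FAM114A2 (0.9992) and CHST11 (0.9984). PLD1 had 590 and 536 counts in NCI-H1703 and 1281 and 1357 in NCI-H1703R, so that its libraries stood apart within this line too. TPBG had between 1 and 2.77 CPM in the NCI-H1581 and NCI-H1581R libraries and between 87.9 and 151 CPM in those of NCI-H1703 and NCI-H1703R. For FAM114A2 these ranges were 11.7 to 14.3 and 27.7 to 32.6 CPM, a much smaller difference than that of HBEGF. TPBG, FAM114A2 and CHST11 all differed between the lines without overlap, as HBEGF did, and likeness within a line was not tested. These genes were picked as the highest of the 10735, with no p-value.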

How the data were processed

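Per the labels, RNA of NCI-H1581, NCI-H1581R, NCI-H1703 and NCI-H1703R was sequenced in 2 replicates each. The authors trimmed reads with cutadapt and quantified paired reads with Salmon against GRCh38 (hg38), imported them by gene with tximport and deposited the estimated counts of each gene as whole numbers without normalisation. The versions, the transcript annotation and the strandedness are not given in the sources used here, and reads shared by overlapping genes may be split. Totals per library and the limit of 3 counts set the precision, and p-values measure the spread between the 2 cultures of each variant.

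Ensembl identifiers were matched to GENCODE v44, which gave positions and canonical transcript lengths. Counts were tested with edgeR 4.0.16 in R 4.3.3 (TMM normalisation, two-sided quasi-likelihood test, genes with at least 10 counts in total), and a gene was called at a Benjamini-Hochberg adjusted p under 0.1 over all 18203 genes. Each comparison used its own 4 libraries, and the interaction used all 8. The standard error is the log2 fold change divided by the square root of the F statistic. CPM values used TMM factors over the 8 libraries. Count ratios are scaled by library size, with exact 95% binomial intervals that cover counting error only. Tables and figures were made with Python 3.11.15 (pandas 2.3.3, scipy 1.17.1, matplotlib 3.10.9). The test was checked on simulated data in which only genes at higher counts were changed, so calls of members at low counts were not covered. Alternatives were DESeq2 1.42.0, RLE normalisation, other filters, a threshold of 0.05, legacy quasi-dispersions, 1 fit of all 8 libraries, the replicate number as a block, other transcript lengths, no TMM factors and each library left out. The use of the first replicates alone was chosen after seeing the data, because of KRT5.

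The members and all gene lists were chosen with earlier results of these data known. All 10 members were named, then, of each role of the pathway list and in each line, the 2 called genes with the largest change among those with a mean of at least 5 CPM, other ligands with at least 10 counts in a library, and the 3 genes most like the leading receptor and ligand. GAB1 and CBLB in NCI-H1581R and LRIG3 in NCI-H1703R, called at lower means, were named after their values were seen. Replicates differed by more than sampling noise in every variant (chi-square divided by its degrees of freedom was 23.3 to 96.8). Pairing rests on the replicate numbers of the labels and on the paper's methods, which state that the procedure was repeated for the second replicate. Neither states that same-numbered libraries were handled together. Deviations of same-numbered libraries correlated at 0.16 over 13020 genes between NCI-H1581 and NCI-H1581R and at 0.418 between NCI-H1703 and NCI-H1703R, and at -0.00565 to -0.43 across lines.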

Additional observations from a re-analysis of the deposited data

Results flagged for a closer look

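Changes with resistance that differed between the lines by the interaction test of edgeR are listed here as NCI-H1703 minus NCI-H1581 on the log2 scale. Among the members these were NRG1, at -10.42 (adjusted p = 4.2e-05), and ERBB2, at 0.59 (adjusted p = 0.0668). NRG1 was higher in both NCI-H1581R libraries than in both of NCI-H1581 and lower in both NCI-H1703R libraries than in both of NCI-H1703.

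Among the pathway genes these were LRIG3 at 6.04 (adjusted p = 0.00014), NRG2 at 2.33 (adjusted p = 0.00121), PTPRJ at -1.66 (adjusted p = 0.0106), RHBDF2 at 0.93 (adjusted p = 0.0167) and ADAM17 at 0.75 (adjusted p = 0.0344). Closer to the threshold lay SHC1 at 0.88 (adjusted p = 0.0638), GAB1 at -1.26 (adjusted p = 0.0785), ERRFI1 at -0.73 (adjusted p = 0.0785) and SOS2 at -0.91 (adjusted p = 0.0885). All of these values are from the edgeR fit of 8 libraries. In 8 fits that each lacked 1 library, the calls of ADAM17, SHC1, GAB1, ERRFI1 and SOS2 were lost in 4 to 6 of the cases, and those of LRIG3, NRG2, PTPRJ and RHBDF2 were kept.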

How the results depend on the processing

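With 2 libraries per variant, a fit without 1 library assumes that the lone library varies like the other group. The number of called members then ranged from 2 to 4 in NCI-H1581R against NCI-H1581, from 0 to 4 in NCI-H1703R against NCI-H1703, from 1 to 2 for the difference between the lines, from 4 to 6 between the sensitive lines and from 6 to 8 between the resistant variants, and 11 mean levels passed 1 CPM per kilobase in each of the 8 cases. At a threshold of 0.05 the difference between the lines called 1 member. With at least 10 counts in every library it called 1 of the 3 members still tested, the sensitive lines 2 of 3 and the resistant variants 4 of 4, since fewer members passed that filter. ERBB3 in NCI-H1703R against NCI-H1703 changed sign without replicate 1 of NCI-H1703 (0.02) and without replicate 2 of NCI-H1703R (0.13), in a range from -0.45 to 0.13. The difference of TGFA between the lines changed sign without replicate 2 of NCI-H1581 (0.86), replicate 2 of NCI-H1581R (0.25) and replicate 1 of NCI-H1703 (0.11), in a range from -4.65 to 0.86. None of these values was called, and the cause was not tested.

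With the replicate number as a block for the pairing, 3 members were called in NCI-H1581R, 6 in NCI-H1703R, 2 for the difference between the lines (block shared by both lines or within each), 5 between the sensitive lines and 8 between the resistant variants. The call of ERBB2 between the sensitive lines was the only member call it changed. Among pathway genes, the differences of GAB1 (adjusted p = 0.113 shared, 0.107 within each line) and ERRFI1 (0.109 shared), both by edgeR, lost their calls under the block. Over all alternatives that kept every library, by edgeR or DESeq2, adjusted p reached 0.124 for GAB1, 0.118 for ERRFI1 and 0.112 for SOS2. The difference of SOS2 thus also lost its call in part of these settings. In 1 fit of all 8 libraries RHBDF2 and ADAM17 lost their calls in NCI-H1703R (edgeR adjusted p of 0.126 and 0.18), with no filter on low counts LRIG3 did (0.116), and with legacy quasi-dispersions ERRFI1 did in NCI-H1581R (0.107). Over all genes the block moved the calls in NCI-H1703R against NCI-H1703 from 2683 to 6357. Of 456 alternative values of 36 results on members, 398 kept their direction and side of the threshold, 46 lost the call, 3 gained it, 4 moved and 5 changed sign.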
